A study of Zea mays with 6 samples.

Results

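The flowering time genes described here were measured by RNA sequencing in seedling leaves of 2 maize inbreds, W9706 and the reference inbred B73. They were zcn8 (Zm00001d010752), dlf1 (Zm00001d022613), id1 (Zm00001d032922), mads69 (Zm00001d042315), rap2.7 (Zm00001d010987), cct10 (Zm00001d024909) and conz1 (Zm00001d045735), that is 7 of the 46430 genes listed, and they were chosen by identifier for their known part in flowering. The files give identifiers alone, and the names are those under which the genes were selected. All libraries came from the third leaf on day 7 of drought, and each line had 3 libraries. B73 is labelled wild type and W9706 carries no further description of its genotype. Seedlings had grown in soil to the stage of 3 leaves under 14 h of light and 10 h of dark at 26°C. No watered libraries were analysed here, so W9706 was compared with B73 under drought alone. The labels give neither the time of day of the harvest nor whether replicates came from separate plants, so the p-values reflect variation among libraries that may be technical.

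Flowering in maize is induced by a mobile protein, florigen, that is made in the veins of leaves and travels to the shoot apex. The florigen gene zcn8 is held back by repressors such as rap2.7 and cct10 and promoted by leaf-expressed activators such as id1 and mads69, while dlf1 acts at the apex as a partner of the florigen. Genes of the day length pathway, among them conz1 and cct10, are known to change in level over the day.

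Between 21084151 and 32088105 reads were assigned to genes per library. Each library was closer to the others of its own line, with mean correlations across genes of log2 CPM (counts per 1000000 reads) of 0.974 to 0.981 within a line and 0.909 to 0.934 between lines. B73 replicate 2 and W9706 replicate 1 lay nearest the other line. The labelled tissue could not be checked against marker genes, since none of 18 leaf, meristem, root and vein markers could be paired with an identifier in the files. The same held for 49 other flowering and photoperiod genes, of which 0 could be paired.

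The measured set split into 4 genes with enough reads for a test and 3 near the limit of detection. id1, mads69, rap2.7 and conz1 passed the filter on low counts in both lines taken singly, while zcn8, cct10 and dlf1 did not pass. After scaling by the trimmed mean of M-values (TMM), a count of 0 in a library allows a level of 0.0850 to 0.160 CPM, which is 3 counts and covers counting error only. CPM values below use TMM scaling unless library totals are named. Of the 4 tested genes 1, conz1, was higher in W9706 and 0 were lower by edgeR's quasi-likelihood test, with Benjamini-Hochberg adjustment over 22135 genes and a threshold of 0.05. At an unadjusted p under 0.05 the edgeR counts were also 1 and 0. DESeq2 gave an adjusted p to 6 of the 7 genes and called 1 higher and 0 lower. Over all 25540 genes with a DESeq2 adjusted p, 3505 were called higher and 4457 lower. At an unadjusted DESeq2 p under 0.05, 2 of the 7 were higher (conz1 and mads69) and 0 lower. The share of all genes at that DESeq2 threshold was not counted. Among all genes tested by edgeR 15.2% were called higher and 19.0% lower in W9706, together 34.2%. An unadjusted edgeR p under 0.05 in either direction was reached by 45.0%. With 4 genes, 1 call cannot be set apart from this background. The median log2 fold change was 0.56 over the 4 genes and 0.010 over all tested genes. In the fit without the filter it was 0.35 over all 7 genes and 0.032 over all genes of that fit. The value of 0.35 is the estimate of zcn8 itself. The 7 estimates also include cct10 and dlf1, which like zcn8 were near the limit of detection. In whole leaves, fewer cells of a type and less RNA per cell cannot be told apart.

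The florigen gene zcn8, a relative of Arabidopsis FLOWERING LOCUS T, was read 9, 3 and 4 times in B73 replicates 1 to 3 and 7, 6 and 16 times in W9706 replicates 1 to 3. These counts correspond to 0.374, 0.135 and 0.213 CPM in B73 and 0.252, 0.212 and 0.454 CPM in W9706. The highest library of each line, B73 replicate 1 and W9706 replicate 3, lay well above the other two, and the lines overlapped. The mean level was 0.240 ± 0.122 CPM for B73 and 0.306 ± 0.129 CPM for W9706 (SD, n = 3 each). Pooled over libraries, 16 reads in B73 and 29 in W9706 gave a ratio of W9706 to B73 of 1.29, with a 95% exact interval from 0.679 to 2.55 for counting error only. A fit without the filter gave a log2 fold change of 0.35 ± 0.67 (SE, edgeR adjusted p = 0.736), with a 95% interval from -1.11 to 1.81. The direction rested on W9706 replicate 3, without which the log2 ratio of the pooled levels was -0.084 in place of 0.37. A difference between the lines was therefore not detectable at this depth, and the interval spans more than a 2-fold change in either direction.

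The reads of zcn8 were unevenly divided between strands. The library kit does not mark strand, and over all genes 50.1% to 50.3% of stranded counts fell in the first strand column. In B73 all 16 zcn8 reads were in that column (95% exact interval from 79.4% to 100%). In W9706 16 of 29 were, with 2 of 7 in replicate 1, 6 of 6 in replicate 2 and 8 of 16 in replicate 3. Reads without molecular identifiers are not independent molecules, so these intervals cover counting error only. Because strand is not marked, neither column tells an overlapping or antisense transcript from zcn8. What divided the zcn8 reads unevenly in B73 was not tested.

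For dlf1, which encodes a bZIP protein that promotes flowering at the shoot apex, 1 read was counted in each of B73 replicates 1 and 2. The other B73 library and all 3 W9706 libraries had 0. Both lines were at or under the limit of 3 counts per library, so no fold change is given.

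**Figure D1:**
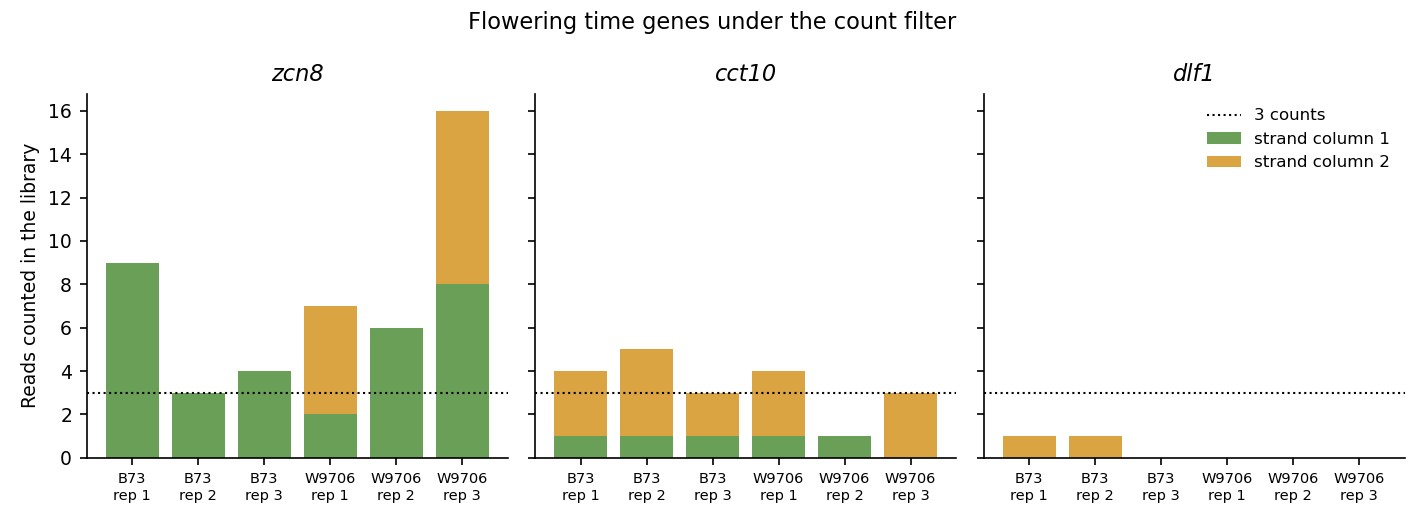
Bars show the reads counted for zcn8, cct10 and dlf1 in each library, stacked by the strand column they fell in, and the dotted line marks 3 counts. zcn8 reached 16 reads in W9706 replicate 3, its B73 reads lay wholly in the first strand column, and dlf1 had 2 reads in all.

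Among the activators, id1 encodes a zinc finger protein of immature leaves that is needed for the transition to flowering. It was read 14, 18 and 12 times in B73 and 45, 18 and 36 times in W9706, or at 0.581, 0.809 and 0.638 CPM against 1.62, 0.637 and 1.02 CPM. W9706 replicates 1 and 3 lay above all B73 libraries, while W9706 replicate 2 lay within the B73 range. Averages were 0.676 ± 0.119 CPM for B73 and 1.09 ± 0.495 CPM for W9706 (SD, n = 3 each). The log2 fold change of 0.69 ± 0.42 (SE) did not pass the edgeR test (adjusted p = 0.246), and its 95% interval ran from -0.29 to 1.66. Spread between W9706 libraries, with a coefficient of variation of 45.3%, exceeded the 17.4% that counting alone would give at this depth. In B73 the coefficient was 17.5%, below the counting value of 26.1%. Without W9706 replicate 1 the log2 fold change was 0.30 (edgeR adjusted p = 0.654).

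The other activator, mads69, encodes a MADS-box protein that lowers rap2.7 and so promotes flowering. It had 153, 95 and 64 reads in B73 and 209, 159 and 261 in W9706. The levels were 6.35, 4.27 and 3.40 CPM in B73 and 7.52, 5.62 and 7.40 CPM in W9706. B73 replicate 1 lay above W9706 replicate 2, so the lines overlapped. Means were 4.68 ± 1.52 CPM and 6.85 ± 1.06 CPM (SD, n = 3 each). The log2 fold change of 0.54 ± 0.25 (SE) missed the threshold (edgeR adjusted p = 0.127), with a 95% interval from -0.027 to 1.11. This outcome rested on B73 replicate 1: without it the log2 fold change was 0.84 and passed (edgeR adjusted p = 0.0317). By library totals the lines did not overlap, at 3.04 to 5.75 CPM in B73 and 6.18 to 8.34 CPM in W9706, and the gene passed under that scaling (edgeR adjusted p = 0.0259). By library totals 46.0% of all tested genes had every W9706 library above every B73 library. With the replicate number as a block the log2 fold change was 0.57, with a 95% interval from 0.066 to 1.08. Its edgeR adjusted p of 0.0760 was still short of the threshold.

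The repressor rap2.7, an AP2-domain gene that delays flowering and lies downstream of the Vgt1 regulatory region, had 350 to 393 reads in B73 and 465 to 580 in W9706. Its levels were 14.8, 17.7 and 18.6 CPM in B73 and 16.7, 20.1 and 16.4 CPM in W9706. With this scaling the libraries of the lines were interleaved, with B73 replicate 1 the lowest and W9706 replicate 2 the highest. By library totals they did not overlap, at 13.4 to 16.6 CPM in B73 and 18.1 to 22.1 CPM in W9706. Under that scaling 46.0% of all tested genes had every W9706 library above every B73 library. Means were 17.0 ± 1.99 CPM and 17.8 ± 2.05 CPM (SD, n = 3 each). The log2 fold change of 0.062 ± 0.13 (SE) did not pass (edgeR adjusted p = 0.745). Its 95% interval, from -0.24 to 0.36 on the log2 scale or 0.847-fold to 1.29-fold, was the narrowest of the 4 tested genes and did not include a 1.5-fold change in either direction under TMM scaling. The sign of the estimate was negative without B73 replicate 1 (-0.025) and without W9706 replicate 2 (-0.035), neither past the threshold. Scaled by library size alone it was 0.35 (edgeR adjusted p = 0.0575).

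**Figure D2:**
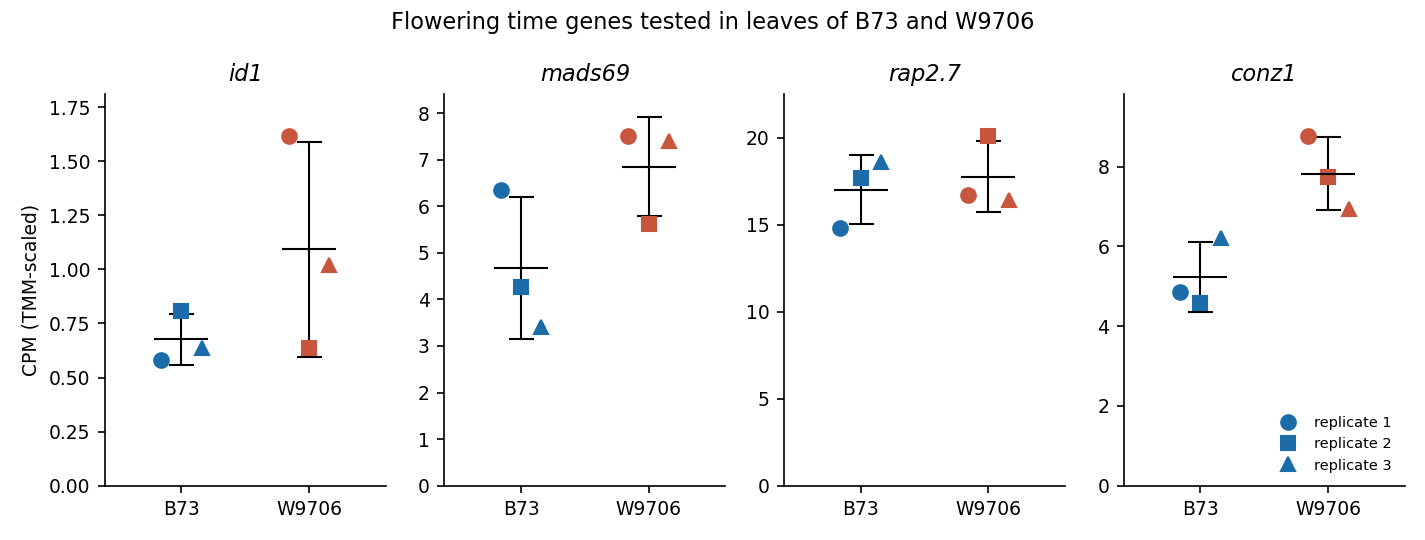
Points show the TMM-scaled CPM of id1, mads69, rap2.7 and conz1 in each library, with the replicate number given by the marker, and bars show the mean and SD of 3 libraries per line; each panel has its own axis from 0. The 3 W9706 libraries lie above the 3 B73 libraries for conz1 (6.94 to 8.78 against 4.59 to 6.22 CPM) and overlap with them for the other genes.

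In the day length pathway, conz1, a relative of the Arabidopsis gene CONSTANS, was the gene that rose. It had 117, 102 and 117 reads in B73 and 244, 219 and 245 in W9706, or 4.86, 4.59 and 6.22 CPM against 8.78, 7.74 and 6.94 CPM. All 3 W9706 libraries lay above all 3 B73 libraries, also by library totals, at 4.22 to 5.55 CPM in B73 and 7.64 to 9.74 CPM in W9706. Among all tested genes 24.8% had every W9706 library above every B73 library with TMM scaling and 46.0% by library totals. Mean levels were 5.22 ± 0.875 and 7.82 ± 0.919 CPM (SD, n = 3 libraries of each line). This rise was 0.58 ± 0.18 (SE) on the log2 scale or 1.50-fold, with a 95% interval from 1.13-fold to 1.99-fold (edgeR adjusted p = 0.0355). The call was lost when any of 4 libraries was left out, with edgeR adjusted p-values of 0.0899 without B73 replicate 1, 0.0926 without B73 replicate 2, 0.113 without W9706 replicate 1 and 0.0952 without W9706 replicate 2. Without both B73 replicate 2 and W9706 replicate 1 the log2 fold change was 0.42 (edgeR adjusted p = 0.224). The direction was the same in all 13 alternatives. The time of harvest is not given, and the part of the hour of day in this difference was not tested.

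The other gene of this pathway, cct10, encodes a CCT-domain protein that represses zcn8 under long days. It was read 4, 5 and 3 times in B73 and 4, 1 and 3 times in W9706, or at 0.166, 0.225 and 0.159 CPM against 0.144, 0.0354 and 0.0850 CPM. With TMM scaling the W9706 libraries lay below those of B73, as they did for 25.8% of tested genes, but by library totals W9706 replicate 1 (0.160 CPM) lay above B73 replicates 1 (0.150 CPM) and 3 (0.142 CPM). The pooled 12 and 8 reads gave a ratio of W9706 to B73 of 0.475, with a 95% exact interval from 0.168 to 1.27 for counting error only. A fit without the filter gave a log2 fold change of -1.02 ± 0.88 (SE, edgeR adjusted p = 0.449). The difference was not detectable at this depth.

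**Figure D3:**
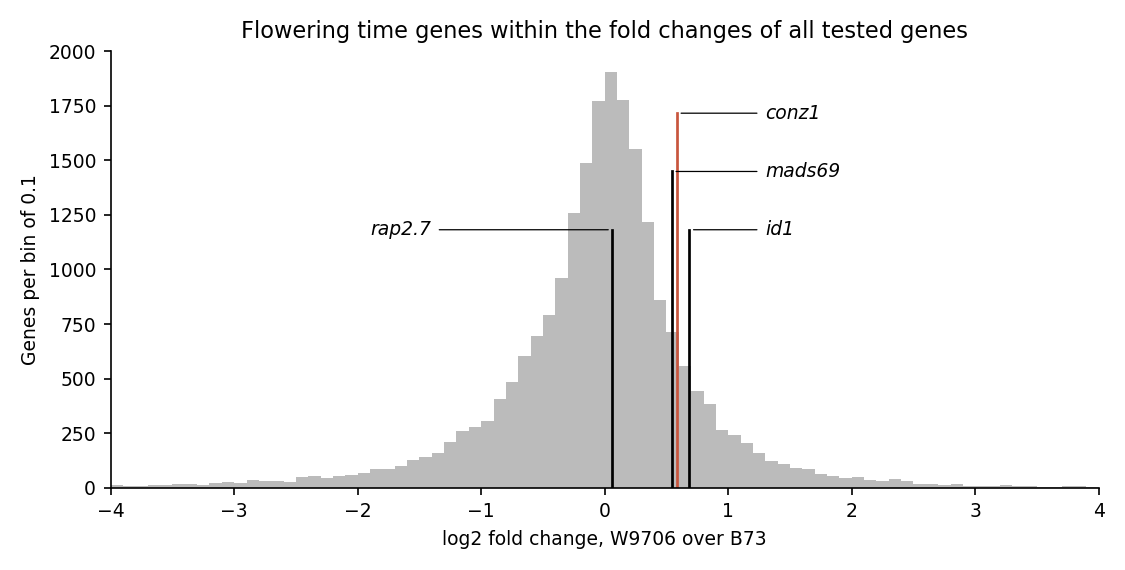
Grey bars count the 22135 tested genes by log2 fold change of W9706 over B73 in bins of 0.1, shown from -4 to 4, and vertical lines of arbitrary height mark the 4 tested flowering genes, red where the adjusted p was under 0.05. conz1 (0.58), mads69 (0.54) and id1 (0.69) lie close together on the right flank and rap2.7 (0.062) lies near the centre.

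Set against all genes, the differences were not extreme in size. Of the 22135 tested genes, 33.3% had a larger log2 fold change in size than conz1, 35.7% a larger one than mads69, 27.7% a larger one than id1 and 89.7% a larger one than rap2.7. Among genes called in either direction the median size was 0.84 on the log2 scale, and 29.3% had a smaller one than conz1.

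Ratios of reads within a library do not depend on the scaling between libraries. For each 100 reads of the repressor rap2.7 there were 32.9, 26.0 and 33.4 reads of conz1 in B73 and 52.5, 38.5 and 42.2 in W9706. These values did not overlap between lines, and their means were 30.7 ± 4.16 and 44.4 ± 7.24 (SD, n = 3 each). They reuse the conz1 reads tested above, and the share of other genes whose ratio to rap2.7 does not overlap was not counted. Reads of mads69 per 100 of rap2.7 were 43.0, 24.2 and 18.3 in B73 and 45.0, 27.9 and 45.0 in W9706, so that the lines overlapped. For id1 the values were 3.93, 4.58 and 3.43 in B73 and 9.68, 3.16 and 6.21 in W9706, again overlapping. Between conz1 and mads69 the ratio overlapped as well, at 76.5 to 183 reads of conz1 per 100 of mads69 in B73 and 93.9 to 138 in W9706. Such ratios describe unequal change of 2 genes and set no level of one against the other, because gene length was not taken into account.

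Likeness of profiles over the 6 libraries was measured as the root mean square distance between log2 CPM profiles, each centred on its own mean. The smallest distance between a pair was 0.31, for rap2.7 and conz1, and the largest 0.52, for rap2.7 and id1. The median distance of other genes was 0.41 to conz1 and 0.29 to rap2.7. The gene most like conz1 among 19985 others was Zm00001d037650, at a distance of 0.041, with 82.9 ± 15.0 CPM for B73 and 123 ± 12.2 CPM for W9706 (SD, n = 3 each). Within a distance of 0.1 lay 19 genes (0.0951%) for conz1 and 177 (0.886%) for rap2.7. The log2 fold change of rap2.7 (0.062) was nearer the median of all tested genes (0.010) than that of conz1 (0.58). Whether other genes with a fold change like that of conz1 have more neighbours was not tested. The nearest to rap2.7 was Zm00001d044367, at a distance of 0.045, with 12.7 ± 1.57 CPM in B73 and 12.9 ± 0.835 CPM in W9706.

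**Figure D4:**
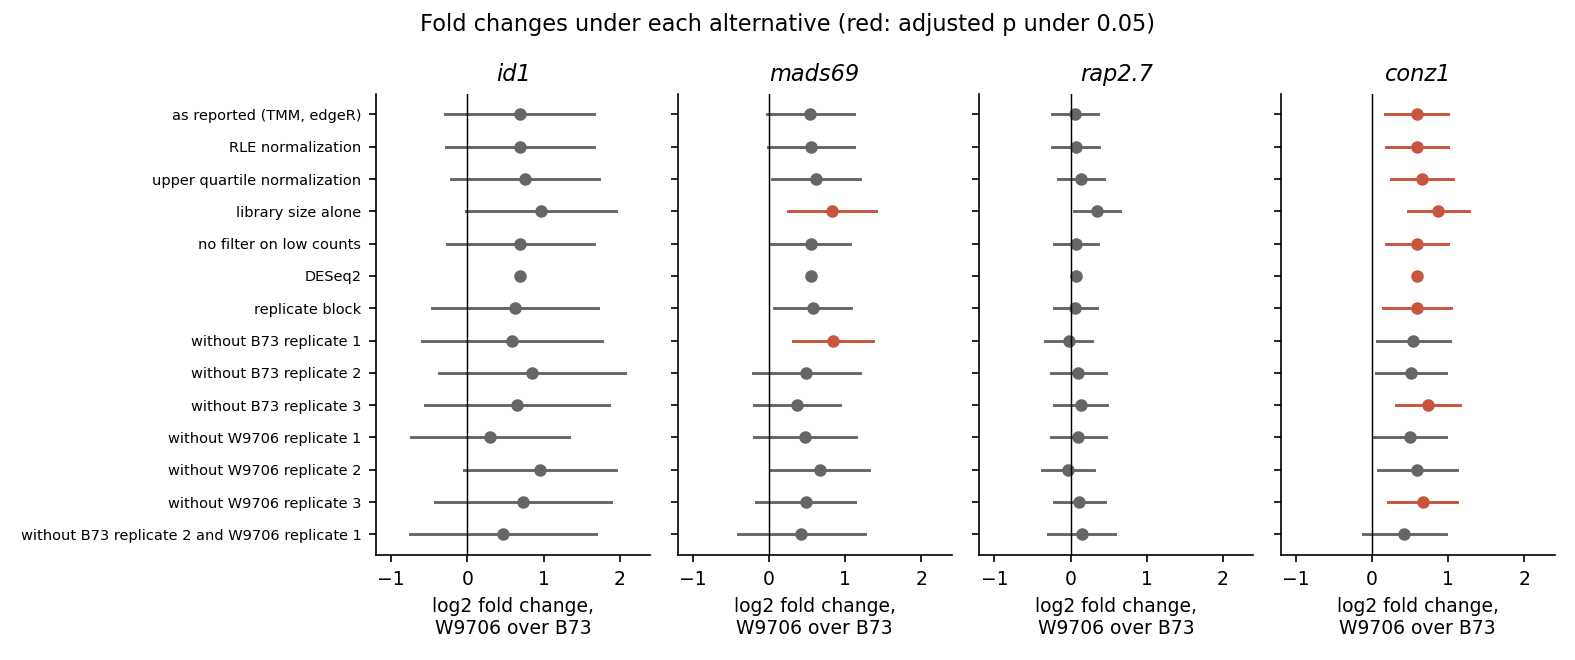
Points show the log2 fold change of W9706 over B73 for the 4 tested genes under the reported fit and each of 13 alternatives, lines show 95% intervals (not drawn for DESeq2), and red marks an adjusted p under 0.05. conz1 stays above 0 throughout, from 0.42 to 0.87, and is red in 8 of the 13 alternatives; mads69 is red in 2, and id1 and rap2.7 in 0.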

How the data were processed

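Per the labels' protocols, leaf RNA was converted to libraries using NEBNext Ultra RNA reagents. Deposited values are raw read counts for each gene in the layout of STAR's gene table. The submitters' processing notes name STAR. Its version and settings, the build and the gene models used are not given in the sources. Whether sequence differences between W9706 and B73 affected the assignment of reads to genes was not tested. Multimapping reads are listed as 0, so genes with close copies are uncertain. The 4 summary lines per file were left out of library sizes; unmapped reads were 12.7% to 13.8%. Unmarked-strand counts were tested for W9706 against B73 with edgeR 4.0.16 in R 4.3.3 (filterByExpr with a minimum count of 10, TMM, robust quasi-likelihood F test, Benjamini-Hochberg threshold of 0.05), after the script was tested on simulated data. The SE is the log2 fold change divided by the root of F. Exact intervals are Clopper-Pearson or conditional binomial at 95%. Profiles used a prior count of 2. DESeq2 1.42.0, other scalings, no filter, the replicate block and leaving out libraries were alternatives.

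Same-numbered libraries of the lines deviated together from their line means, with correlations of 0.218, 0.111 and 0.131 over tested genes. Other numbers gave -0.228 to 0.107. Deviations from a line mean sum to 0, so these correlations depend on one another. They cannot decide whether the replicate numbers pair libraries. The reported fit did not use such a pairing, and the replicate block was an alternative. Any pairing would come from the data, since the labels do not say what a number shares. The 7 genes, lists and tests were chosen with earlier results of these data known. Named genes were these 7 and, for the 2 most abundant of them, the gene with the nearest profile and a mean of at least 1 CPM. No nuclear identifier (44146) could be paired with a RefSeq name, so the lists of 49 pathway genes and 18 tissue markers were not tested.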

Additional observations from a re-analysis of the deposited data

How the results depend on the processing

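The 13 alternatives left conz1 positive, with log2 fold changes of 0.49 to 0.73 when 1 library was left out (call lost in 4 of 6), and 0.42 without B73 replicate 2 and W9706 replicate 1 together, where the call was also lost. mads69 passed with library size alone (0.83) and without B73 replicate 1, in a range of 0.37 to 0.84. rap2.7 turned to -0.025 without B73 replicate 1 and -0.035 without W9706 replicate 2, in a range of -0.035 to 0.13 with 1 library left out and up to 0.35 with library size alone. The cause was not tested. The number of the 4 genes called higher was 2 with library size alone and 0 to 1 with 1 library left out. It was 0 without B73 replicate 2 and W9706 replicate 1 together. The replicate block changed no call of these genes, with 0.59 for conz1 (edgeR adjusted p = 0.0488). id1 stayed positive and uncalled in all 13. With 1 library left out zcn8 ranged from -0.084 to 0.90 (0.37 with all libraries) and cct10 from -1.55 to -0.73 (-1.07 with all libraries). The sign of zcn8 turned without W9706 replicate 3. No fold change is given for dlf1. Over all genes 8165 were higher and 2622 lower with library size alone, against 3367 and 4197; that scaling moved the median of all genes from 0.010 to 0.29, and relative to it conz1 was at 0.58, mads69 at 0.53 and rap2.7 at 0.052. With 1 library left out there were 2070 to 2977 higher genes (fewest without W9706 replicate 2) and 3063 to 3969 lower genes, and the 2 libraries together 2240 higher. Read counts were low for zcn8, cct10 and dlf1, with 45, 20 and 2 reads over all libraries.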

Other observations

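The strand columns of zcn8 were examined after their values had been seen. Of 132 genes with 16 stranded counts summed over the B73 libraries, 1 had all of them in one column, and that gene was zcn8. The other members of the set were divided in B73 at 29 to 15 (id1), 179 to 133 (mads69), 550 to 549 (rap2.7), 3 to 9 (cct10) and 162 to 174 (conz1) between the first and second column. In W9706 the division was 48 to 51, 341 to 288, 874 to 740, 2 to 6 and 378 to 330, in the same order. What sets the division of zcn8 apart in B73 was not tested.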
